A study of Rattus norvegicus with 18 samples.

Results

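The effect of age on liver transcripts was examined in male Wistar rats whose dietary fat was sunflower oil. It was taken as the comparison of the 3 livers labelled old and sunflower oil (24 months) with the 3 labelled young and sunflower oil (6 months), which are 6 of the 18 samples of the series. All 14217 genes with a probe set of their own symbol were compared. In the other 12 samples the oil was virgin olive oil or fish oil, with 3 livers at each of the same ages, and these served for comparison. The labels name no genetic change in any animal. From weaning all received matched amounts of a semi-synthetic, isoenergetic diet that held 4% fat by weight. Food was unrestricted for 2 months and was then rationed at 25 g per rat per day. Cages held 3 animals and the labels do not say which, so animals of a group may share a cage, and p-values measure the spread between these animals as housed.

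Sunflower oil is rich in linoleic acid, the n-6 polyunsaturated fatty acid from which desaturases and elongases make arachidonic acid, the precursor of prostaglandins and leukotrienes. Polyunsaturated fatty acids bind the nuclear receptor PPAR-alpha, which switches on fatty acid oxidation, and they lower the activity of SREBP-1, which drives fatty acid synthesis. Ageing of the rodent liver has been studied through respiratory chain transcripts, responses to oxidative damage, interferon and inflammatory genes and, in males, the growth hormone pattern that keeps male-specific and female-specific liver genes apart.

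The deposited array intensities had a trimmed mean of 99.2 to 99.3 on each of the 6 sunflower oil arrays, and array medians were 18.4 in all 3 young livers and 18.5 to 20.3 in old ones. Differences are given as log2(signal + 16), 24 minus 6 months, each with its limma standard error; this scale understates the change of dim genes. Hepatocyte markers were present in all 6 livers: 11 of 12 were measured, 0 of them stayed under a signal of 16 throughout, and their summed signal was 78778 to 86401 at 6 months and 72965 to 78333 at 24 months. In a principal component analysis of the 6 arrays, the first component (29.5% of the variance) held the young livers at -25.0 to -6.64 and the old ones at 3.05 to 29.2. The second component (23.6%) set the second young liver, at -24.7, apart from the other two young livers, at 14.98 and 26.2. Within-group spread was not larger on sunflower oil than on the other oils: the median SD over genes was 0.217 at 6 months and 0.210 at 24 months, against 0.219 to 0.232 in the other 4 groups.

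Against this spread, no gene reached the threshold. Limma called 0 of 14217 genes (0%) at an adjusted p of 0.05, and the smallest adjusted p was 0.0667. At an unadjusted p of 0.05 there were 567 genes higher at 24 months (3.99% of those tested) and 519 lower (3.65%). The 3 old and 3 young livers did not overlap for 985 genes that were higher (6.93%) and for 933 that were lower (6.56%). The same fit called 20 genes for olive oil (0.141%) and 243 for fish oil (1.71%); with the third old animal on fish oil left out these counts were 33 (0.232%) and 15 (0.106%). The median size of the age difference over all genes was 0.16 with sunflower oil, 0.18 with olive oil and 0.20 with fish oil. The count of 0 depended on which genes and livers entered. With the 6027 genes of mean signal under 32 left out, 15 of 8190 genes (0.183%) passed, 10 higher and 5 lower. Of these 15, 3 were under a signal of 32 in all 3 sunflower oil livers of 1 age and passed that filter only through brighter livers, so the count is no separate support for them. Without the first old liver 7 genes were called higher and 6 lower, without the first young liver 2 were called higher and 0 lower, and with any other of the 6 left out limma called 0. A fit on the 6 sunflower oil arrays alone called 1 gene, Prlr.

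**Figure D1:**
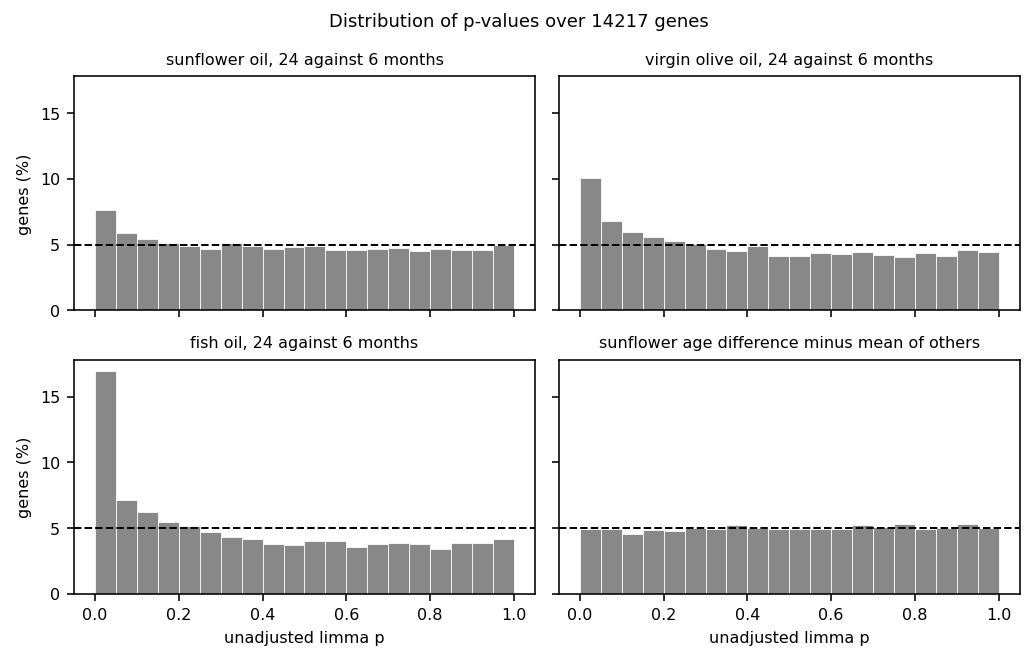
Share of the 14217 genes (vertical axis, percent) in each interval of 0.05 of the unadjusted limma p (horizontal axis) for ageing with each oil and for the sunflower oil age difference minus the mean of the other oils; the dashed line is an even spread. The first bar holds 7.64% of genes for sunflower oil, 10.1% for olive oil, 17.0% for fish oil and 4.92% for the difference between oils.

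Since no gene passed, the 17 genes with an adjusted p under 0.08 are described here, a limit chosen after their values were seen. Of these, 11 were higher and 6 lower in old livers, and in all 17 the ages did not overlap. Choosing genes for a small p in the same livers favours a lack of overlap, so it is no separate support. All 17 differences had the same sign with olive oil and 14 had it with fish oil, where 60.5% of all genes shared it with each.

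The smallest p belonged to Vxn, vexin. Vxn signals were 17.8, 0.8 and 1.4 at 6 months and 66.2, 369.8 and 252 at 24 months. Every old liver lay above every young one, by 3.25 ± 0.486 (adjusted p = 0.0667). Its second, dimmer probe set gave 0.18. Slc34a2, a sodium-dependent phosphate transporter, had signals of 134, 71.3 and 66.8 in young and 989.5, 345 and 566 in old livers, a difference of 2.53 ± 0.411 (adjusted p = 0.0727). Here too the ages were apart, with the first old liver the highest. Cyp4a8 belongs to the P450 family that hydroxylates fatty acids at the omega end, and gave 37.5, 9.9 and 114 against 440.1, 979 and 561 (3.50 ± 0.586, adjusted p = 0.0727). Dnase2b, an acid endonuclease, had signals of 51.7, 63.5 and 94.6 in young and 361, 651 and 296 in old livers (2.35 ± 0.428, adjusted p = 0.0787). The lowest old liver was well above the highest young one. The Dnase2b difference was 1.23 with olive oil and -0.10 with fish oil.

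Ptk7, a receptor of the Wnt and planar polarity pathways with an inactive kinase domain, was dim in young livers at 10.8, 10.9 and 5.4 and reached 45.8, 88.3 and 86.1 in old ones (1.80 ± 0.306, adjusted p = 0.0727). Its difference was 0.49 and 0.72 with olive and fish oil. The transcription factors Mybl1 and Mycl were also higher, Mybl1 by 1.95 ± 0.378 (adjusted p = 0.0787) and Mycl by 1.44 ± 0.274 (adjusted p = 0.0787). Il7, a cytokine that maintains lymphocytes, gave 19.7, 38.9 and 19.8 against 112, 166 and 89.8 (1.71 ± 0.324, adjusted p = 0.0787). Ablim1, an actin-binding protein, was higher by 1.09 ± 0.210 (adjusted p = 0.0787).

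Among the lower genes, Inmt, the indolethylamine N-methyltransferase, had the largest difference. Inmt signals were 1462, 2374 and 1566 at 6 months and 246, 73.9 and 68.3 at 24 months (-3.82 ± 0.668, adjusted p = 0.0787). The first old liver kept the most signal, and all 3 were far below the young range. Inmt gave -4.08 with olive oil and -4.10 with fish oil. Igfbp2, which binds insulin-like growth factors, had signals of 1271, 247 and 322 against 45.1, 3.7 and 30.7 (-3.66 ± 0.706, adjusted p = 0.0787). The first young liver stood well above the other two, and the old livers were all below 50. Igf1 itself differed by 0.0061 (adjusted p = 0.998), with overlapping livers.

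Lepr, the leptin receptor, had signals of 105, 77.5 and 95.1 in young livers and 32.2, 11.7 and 11.9 in old ones (-1.69 ± 0.308, adjusted p = 0.0787). The ages were apart, but its 7 probe sets gave from -1.86 to 0.04, the 3 dimmest of them from -0.48 to 0.04. Cldn3, a tight junction protein, gave 949.9, 857 and 698 against 379, 228 and 162 (-1.71 ± 0.317, adjusted p = 0.0787). A2m, a protease inhibitor that is an acute phase protein in rats, gave 79.3, 210.1 and 137 against 30.3, 12.8 and 18.4 (-2.06 ± 0.401, adjusted p = 0.0787). In neither gene did the ages overlap. With olive and fish oil the Cldn3 differences were -0.21 and -1.06, and those of A2m were -1.30 and 0.20. Smoc2, a secreted matrix protein, was dim throughout, at 34.7, 31.4 and 28.5 and 5.2, 10.6 and 13.9 (-0.89 ± 0.164, adjusted p = 0.0787), and its other 2 probe sets gave 0.31 and 0.12.

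**Figure D2:**
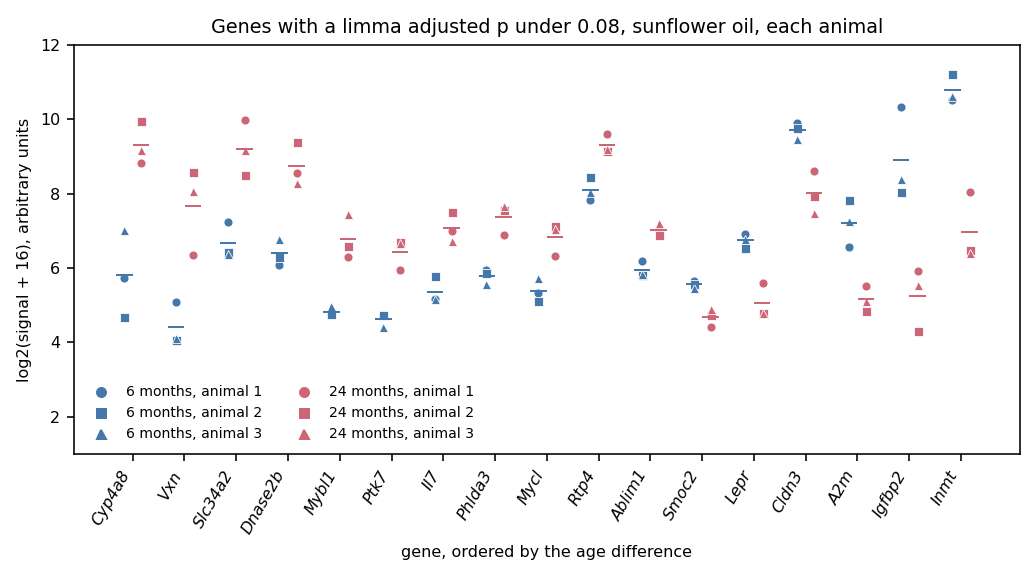
Signal of the 17 genes with a limma adjusted p under 0.08, as log2(signal + 16) on the vertical axis, for each 6 month (blue) and 24 month (red) liver on sunflower oil; symbols number the animals within an age and lines are means of 3. The ages do not overlap for any of the 17, which were chosen for a small p in these same livers. The 11 higher and 6 lower genes run from Cyp4a8 (3.50) to Inmt (-3.82).

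Pathways were followed through 39 gene lists, 28 for pathways and 11 for markers of cell types. No member of any list passed limma's threshold with sunflower oil, so members are counted at an unadjusted p of 0.05 and by overlap, to be read against the shares of all genes given above, and the genes named from them were chosen after their values were seen unless they belong to the 36 core genes of the naming rule. Over all genes the median difference was 0.01 and 52.3% of genes lay above 0. When the arrays were quantile normalized again the median over all genes became -0.01. Medians of single lists could move more, in either direction. That of hepatocyte markers went from -0.11 to -0.01 and that of endothelium markers from -0.09 to -0.16. In 22 of the 39 lists the median changed sign in at least 1 alternative, so medians near 0 have no settled direction.

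**Figure D3:**
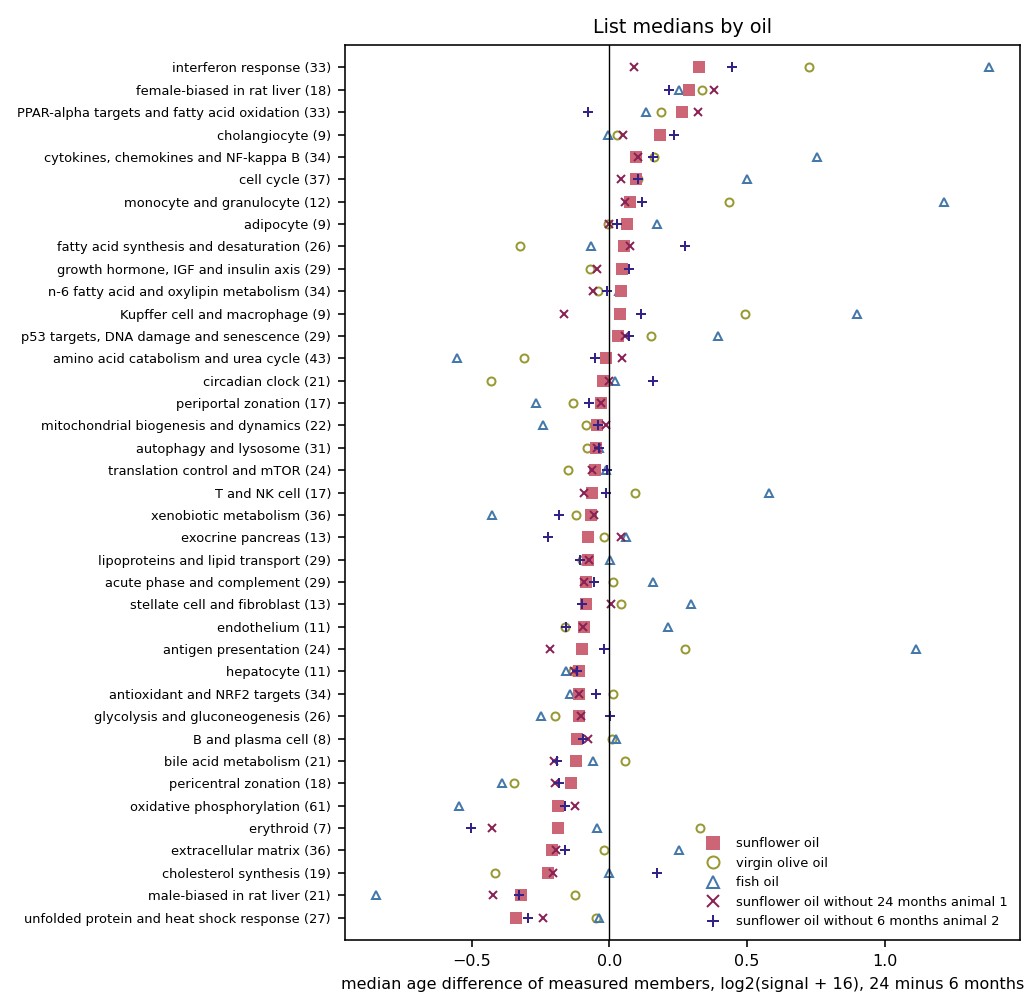
Median age difference of the measured members of each list (log2, horizontal axis; number of members in brackets) with sunflower oil (filled squares), olive oil (circles) and fish oil (triangles), and with sunflower oil without the first old liver (crosses) or without the second young liver (plus signs). The interferon list has the highest sunflower oil median (0.33) and the unfolded protein list the lowest (-0.34); the interferon median is 0.09 without the first old liver.

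Interferon response genes, which cells switch on against viruses, had the highest median of all lists with sunflower oil. Of 33 measured members, 28 lay above 0, with a median of 0.33. In 10 of them the old livers lay above all young ones, where 6.93% of all genes did so, and in 0 below. At an unadjusted p of 0.05, 6 were higher and 0 lower, where 3.99% and 3.65% of all genes were. The strongest was Rtp4, an interferon-induced chaperone of receptors. Rtp4 signals were 211, 335 and 248 at 6 months and 769, 551 and 569 at 24 months (1.21 ± 0.231, adjusted p = 0.0787). Every old liver exceeded the young range, and the difference was 1.38 with olive oil and 1.46 with fish oil. Oasl, of the oligoadenylate synthetase family, gave 42.9, 33.4 and 37.6 against 88.8, 88.3 and 57.4 (0.79 ± 0.231, adjusted p = 0.328). Bst2, which tethers budding virus to the cell surface, gave 753, 833 and 784 against 1150.1, 1401 and 1219 (0.66 ± 0.277, adjusted p = 0.585). Irf1, a transcription factor of the pathway, gave 111, 64.5 and 81.6 against 239, 205 and 159 (1.10 ± 0.506, adjusted p = 0.631). In these 3 genes the ages did not overlap either.

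The size of the interferon difference rested largely on the first old liver. Its members stood at a median of 0.71 above the young mean in that liver, against 0.13 and 0.16 in the other two, and 25 of the 33 had their highest old value there. Without it the list median was 0.09. Mx1, an antiviral GTPase, had signals of 11.1, 17.5 and 23.1 in young and 29.6, 8.9 and 18.4 in old livers, which overlapped. Irf7 overlapped too, at 73.0, 123 and 80.6 and 223, 76.9 and 90.0; without the first old liver the sign of both was negative (-0.17 for Mx1 and -0.10 for Irf7). Rtp4, Oasl, Bst2, Irf1, Ifit2, Igtp, Irgm, Cxcl10, Ifi44 and Isg15 were the 10 members without overlap, so they were higher in each of the 3 old livers. The highest summed signal of macrophage markers was also in the first old liver (3717, against 2678 and 3015 in the other old livers and 2784 to 3348 in young ones), as was that of monocyte and granulocyte markers (1526, against 1236 and 1283, and 1332 to 1442). T and NK cell markers summed to 239 to 295 in young and 213 to 309 in old livers. Of these markers 0 of 9, 5 of 12 and 5 of 17 stayed under a signal of 16, and 0 macrophage, 0 monocyte and 1 T and NK cell marker lay without overlap. Their part in the interferon result was not tested, and in whole liver more cells of a type and more RNA per cell cannot be told apart.

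The interferon difference with sunflower oil lay below that with the other oils in most members. The list median was 0.73 with olive oil and 1.38 with fish oil, where 2 and 15 members passed the threshold (3 and 1 with the third old animal on fish oil left out). Against the mean of the other oils, 31 of 33 members had a lower difference with sunflower oil, 11 of them at an unadjusted p of 0.05, where 4.92% of all genes passed in either direction. None passed after adjustment (the smallest adjusted p was 0.944). Antigen presentation genes had medians of -0.10, 0.27 and 1.11 with sunflower, olive and fish oil, and 22 of 24 were below the other oils, 7 at an unadjusted p of 0.05. The sunflower oil median was -0.21 without the first old liver and 0.043 without the second. The corresponding medians of macrophage markers were 0.04, 0.49 and 0.90, and all 9 were below the other oils, 3 at an unadjusted p of 0.05. With sunflower oil the macrophage median was -0.16 without the first old liver and 0.22 without the second. The third old animal of the fish oil group stood apart, and leaving it out gave fish oil medians of 1.09, 0.48 and 0.66 for the interferon, antigen presentation and macrophage lists, with 29, 21 and 9 members below the other oils, 11, 8 and 4 at an unadjusted p of 0.05.

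Interferon-stimulated genes are bound by STAT and IRF factors at a response element whose core was searched for as GAAANNGAA, on both strands (TTCNNTTTC on the other). Promoters from 250 bases before to 50 bases after the RefSeq start (GRCr8) were at hand for 25 of the 33 members, and 17 of these (68.0%) held the core, against 3251 of 33469 promoters in the table (9.71%). The match was not limited to members that were higher: 5 of the 7 members without overlap that had a promoter held it, as did 12 of the 18 others. The 5 sequences are shown because they belong to members higher in every old liver; capitals mark the core, sequences run in the direction of the gene up to its start, and 1 match is shown per gene.
Igtp: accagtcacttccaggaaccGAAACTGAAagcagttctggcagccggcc
Irgm: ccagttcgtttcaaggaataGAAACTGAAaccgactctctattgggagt
Bst2: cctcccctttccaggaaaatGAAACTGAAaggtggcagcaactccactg
Cxcl10: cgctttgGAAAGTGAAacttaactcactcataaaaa
Ifi44: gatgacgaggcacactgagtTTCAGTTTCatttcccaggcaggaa
The Igtp window is chr10:42874924-42874972 on the forward strand, its capitals starting at base -103 from the gene start. The Irgm window is chr10:33742584-33742632 on the reverse strand, its capitals starting at base -34 from the gene start. The Bst2 window is chr16:18255064-18255112 on the reverse strand, its capitals starting at base -125 from the gene start. The Cxcl10 window is chr14:15988816-15988851 on the forward strand, its capitals starting at base -243 from the gene start. The Ifi44 window is chr2:243303841-243303885 on the reverse strand, its capitals starting at base -25 from the gene start. Igtp and Irgm, interferon-induced GTPases, gave 1.11 ± 0.574 (adjusted p = 0.692) and 1.01 ± 0.517 (adjusted p = 0.691). Cxcl10, a chemokine, gave 0.81 ± 0.647 (adjusted p = 0.849) and Ifi44 gave 0.49 ± 0.242 (adjusted p = 0.673). A match is a description of the letters and not a binding site.

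**Figure D4:**
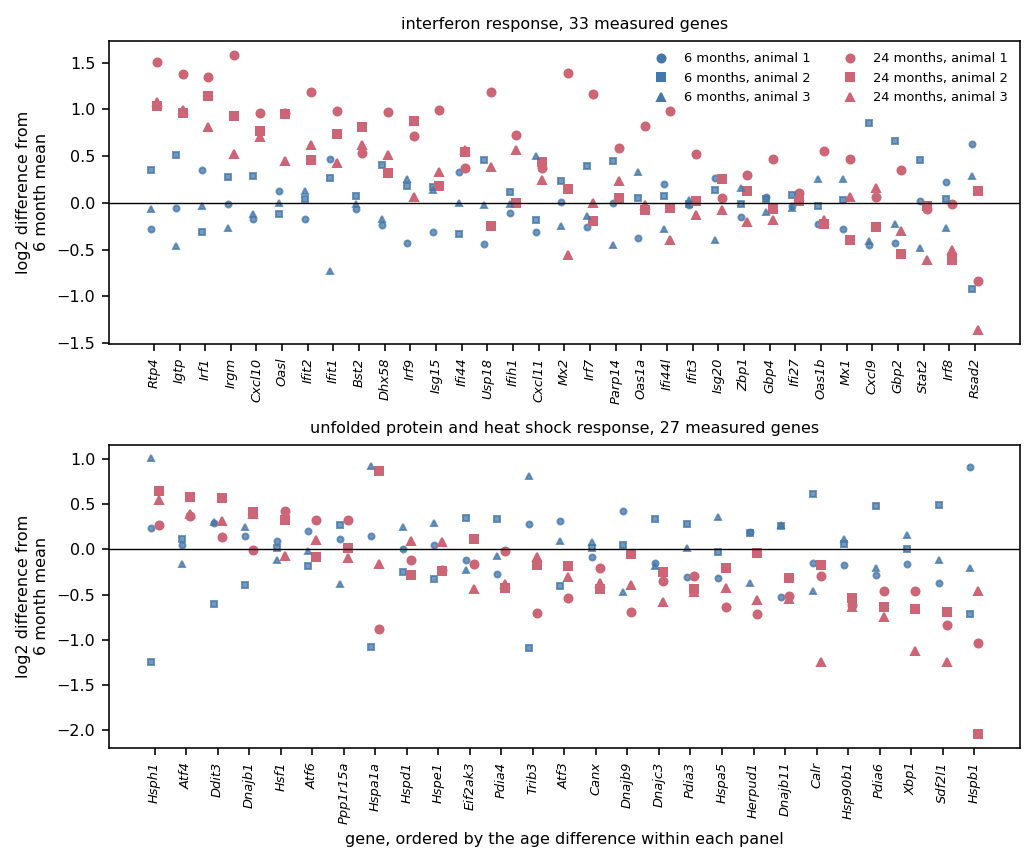
Difference of each sunflower oil liver from the mean of the 3 young livers (log2(signal + 16), vertical axis) for the 33 interferon response genes (top) and the 27 unfolded protein and heat shock genes (bottom); blue symbols are 6 month and red symbols 24 month animals. Genes run in order of the age difference within each panel. In the top panel the first old liver (circles) is the highest old liver for 25 genes, and in the bottom panel 20 of the 27 genes have an age difference below 0.

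The lowest list median belonged to the unfolded protein and heat shock response, the chaperones and folding enzymes of the endoplasmic reticulum and cytosol. It was -0.34, with 20 of 27 members below 0. Without overlap 6 were lower and 1 higher, where 6.56% and 6.93% of all genes were. At an unadjusted p of 0.05, 7 were lower and 0 higher, where 3.65% and 3.99% of all genes were. Unlike that of the interferon list, this median did not rest on 1 liver. The old livers stood at -0.30, -0.18 and -0.38. The median was -0.24 without the first old liver and -0.30 without the second young one. Hsp90b1, the chaperone GRP94, had signals of 2536, 2965 and 3099 at 6 months and 1853, 1957 and 1837 at 24 months (-0.60 ± 0.180, adjusted p = 0.347). Pdia6, a disulfide isomerase, gave 1581, 2699 and 1674 against 1393, 1235 and 1138 (-0.62 ± 0.200, adjusted p = 0.417). Xbp1, the transcription factor that drives many of these genes, gave 1872, 2099 and 2335 against 1512, 1321 and 953 (-0.75 ± 0.267, adjusted p = 0.479). The old livers lay below the young ones in all 3 genes. Sdf2l1 (-0.93), Dnajc3 (-0.39), Canx (-0.34) and the small heat shock protein gene Hspb1 (-1.18) completed the 7. Atf4, the transcription factor of the integrated stress response, was the 1 member higher without overlap, at 791, 833 and 682 against 995, 1151 and 1009.8 (0.45 ± 0.296, adjusted p = 0.79).

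With olive and fish oil the list medians were -0.05 and -0.04. Hsp90b1 gave -0.14 and -0.13 there, Pdia6 -0.10 and -0.20, and Canx 0.18 and 0.086, while Xbp1 was lower with every oil (-0.66 and -0.57). Against the mean of the other oils 19 of 27 members were lower with sunflower oil, 3 at an unadjusted p of 0.05. Of all genes 4.92% passed that p in either direction. The smallest adjusted p of the members was 0.944. With the third old animal on fish oil left out, 17 were lower, with 2 lower and 1 higher at an unadjusted p of 0.05. Xbp1 is also on the list of B and plasma cell markers, whose summed signal was 2596 to 3039 in young and 1693 to 2485 in old livers, with 4 of 8 markers under a signal of 16 in all 6. Most of that sum was Xbp1 itself: the other 7 markers summed to 496 to 780.4 in young and 740.3 to 1149.9 in old livers.

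Transcripts of oxidative phosphorylation, the subunits of the respiratory chain and ATP synthase, lay slightly below 0 in nearly all members. Of 61 measured, 58 lay below 0. Without overlap 19 were lower and 0 higher, where 6.56% and 6.93% of all genes were. The median was -0.19, as with olive oil (-0.19) and less than with fish oil (-0.54). The shift depended on scaling, since after quantile normalization the median was -0.08. Of the 61, 2 were lower at an unadjusted p of 0.05, Cyc1 and Ndufa9. That count is near the share of all genes, 3.65%. Cyc1, cytochrome c1 of complex III, had signals of 2049, 2109 and 1850.2 against 1474, 1542 and 1399 (-0.44 ± 0.148, adjusted p = 0.428). Ndufa9, of complex I, gave 841, 914 and 846 against 626, 740.1 and 676 (-0.34 ± 0.153, adjusted p = 0.622). Neither gene's ages overlapped. In 58 of the 61 members the sunflower oil difference lay above the mean of the other oils, 0 of them at an unadjusted p of 0.05.

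Ppargc1a, the coactivator PGC-1-alpha that drives mitochondrial genes, had signals of 73.3, 71.1 and 53.8 in young and 22.6, 34.4 and 36.9 in old livers (-0.80 ± 0.239, adjusted p = 0.339). The ages did not overlap, and the differences with olive and fish oil were -1.04 and -0.97. With sunflower oil the dimmer Ppargc1a probe sets gave -1.22 (limma adjusted p = 0.0927 with all probe sets tested) and -0.31. Ucp2, an uncoupling protein, gave 148, 112 and 166 against 103, 119 and 53.3 (-0.59 ± 0.308, adjusted p = 0.692), with overlap.

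Genes of fatty acid oxidation and other targets of PPAR-alpha had a list median of 0.27, with 24 of 33 members above 0. In 5 the old livers lay above the young ones and in 3 below, where 6.93% and 6.56% of all genes did so. At an unadjusted p of 0.05, 5 were higher and 1 lower, where 3.99% and 3.65% of all genes were. The median rested on the second young liver, whose members stood at -0.51 against 0.30 and 0.26 in the other young livers: without it the median was -0.08. Pdk4, the kinase that shuts off pyruvate oxidation, had signals of 406, 214 and 349 at 6 months and 628, 1179 and 1188 at 24 months (1.57 ± 0.384, adjusted p = 0.2). Every old liver was above every young one, and the difference was -0.22 with olive oil and 1.93 with fish oil. Cpt2, which completes the import of fatty acids into mitochondria, gave 933, 557 and 953 against 1232, 1392 and 1638 (0.82 ± 0.215, adjusted p = 0.258). The second young liver was the lowest, and without it the difference was 0.57. Cpt2 gave -0.069 with olive oil and -0.0051 with fish oil, and exceeded the mean of the other oils by 0.86 (unadjusted p = 0.00489, adjusted p = 0.944).

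Cd36, the fatty acid uptake protein, had signals of 139, 248 and 189.6 in young and 724, 359 and 1193 in old livers (1.77 ± 0.541, adjusted p = 0.36). Plin2, which coats lipid droplets, gave 2702, 1517 and 2273 against 3947, 3006 and 4744 (0.86 ± 0.338, adjusted p = 0.532). Neither gene's ages overlapped. Ppara itself was dim and lower, at 50.3, 52.1 and 51.8 against 40.1, 17.1 and 15.8 (-0.79 ± 0.442, adjusted p = 0.729). Bdh1, a ketone body enzyme, gave -0.88 ± 0.353 (adjusted p = 0.552), against 0.19 with olive oil and -0.58 with fish oil.

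Genes of fatty acid synthesis varied widely between animals of the same age. Scd, the stearoyl-CoA desaturase that makes oleic acid, had signals of 11.8, 8055 and 1.4 in young and 223, 2564 and 6131 in old livers (3.31 ± 2.51, adjusted p = 0.835). The second young liver had the highest signal of all 6 while the other two young livers were near 0. Fasn, the fatty acid synthase, followed the same order in young livers at 76.3, 1456 and 80.1 and gave 228, 645 and 495 in old ones (0.89 ± 1.33, adjusted p = 0.939). Without the second young liver the Scd difference was 6.15 and the Fasn difference 2.21, with adjusted p-values of 0.603 and 0.797. With the arrays numbered 2 at 6 months left out for all oils, both differences were the same. The limma adjusted p-values were then 0.12 for Scd and 0.295 for Fasn. Srebf1, the gene of SREBP-1, gave 434, 962 and 369 and 558, 598 and 199 (-0.39 ± 0.514, adjusted p = 0.93). The whole list of 26 genes had a median of 0.05, or 0.27 without the second young sunflower oil liver. Cholesterol synthesis genes had a median of -0.22, or 0.17 without it. Fdps, the farnesyl diphosphate synthase, had signals of 754, 3334 and 599.8 in young and 604, 1021 and 519.9 in old livers.

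The desaturases of polyunsaturated fatty acids, through which linoleic acid passes, had differences below 0. Fads1, which makes arachidonic acid in the last step of that path, had signals of 3009.6, 3762 and 1290.3 at 6 months and 1052, 995 and 407 at 24 months (-1.68 ± 0.559, adjusted p = 0.423). The ages did not overlap, though the third young liver came close to the old ones. Fads2, which takes linoleic acid in the first step, gave 1886, 2395 and 690.2 against 717, 1041 and 734 (-0.83 ± 0.515, adjusted p = 0.766), with overlap. Elovl2, an elongase of long polyunsaturated chains, gave 1695, 1176 and 1517 against 806, 977 and 765 (-0.76 ± 0.320, adjusted p = 0.582), without overlap. With olive and fish oil the Fads1 differences were -0.97 and -1.70 and those of Elovl2 -0.53 and -0.78.

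Enzymes that turn n-6 fatty acids into oxylipins gave little else. The median of 34 measured members was 0.04. Without overlap 1 was higher (Cyp4a8, given above) and 0 lower, where 6.93% and 6.56% of all genes were. Alox5, which starts leukotriene synthesis, was near 0 in every liver (1.1, 10.8 and 0.8, then 2.0, 3.5 and 3.9), as was the inducible cyclooxygenase gene Ptgs2 (5.2, 0.5 and 0.7, then 3.3, 0.3 and 0.1). Alox15 gave 241, 10.9 and 47.4 against 21.2, 42.9 and 7.3 (-1.03 ± 0.570, adjusted p = 0.721), with the highest signal in the first young liver, without which the difference was -0.15. Ephx2, the soluble epoxide hydrolase, gave 2420.3, 517 and 2763 against 1647, 1482 and 2924 (0.34 ± 0.603, adjusted p = 0.951), with the second young liver far below the rest; without it the sign was negative (-0.42).

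Liver genes that differ between the sexes in rats, under control of growth hormone, had medians of 0.29 for 18 female-biased genes and -0.32 for 21 male-biased ones. Of the female-biased genes 6 were higher and 1 lower without overlap, and 5 and 1 at an unadjusted p of 0.05. Of the male-biased genes 1 was higher and 7 lower without overlap, and 1 and 3 by p. Over all genes 6.93% were higher and 6.56% lower without overlap, and 3.99% and 3.65% by p. Prlr, the prolactin receptor, had signals of 97.7, 88.1 and 106 in young and 659, 698 and 567 in old livers (2.54 ± 0.531, adjusted p = 0.121). Both groups were tight and far apart, and in the fit on the 6 sunflower oil arrays alone the adjusted p was 0.00349. All 3 of its probe sets gave differences of 2.09 to 3.08. With olive oil the Prlr difference was 0.61 and with fish oil 3.06. Sult2a2, a steroid sulfotransferase, gave 10.6, 24.7 and 12.9 against 65.1, 379 and 159 (2.50 ± 0.690, adjusted p = 0.285). Akr1b7, an aldo-keto reductase, gave 4.4, 3.2 and 1.0 against 114, 681 and 28.0 (3.07 ± 0.931, adjusted p = 0.351). In both the second old liver was the highest.

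Trim24 and Cux2, nuclear regulators on the female-biased list, gave 2.13 ± 0.527 (adjusted p = 0.201) and 1.12 ± 0.503 (adjusted p = 0.624). Cyp2c12, the female-specific P450, gave 16.4, 48.3 and 51.8 against 120.2, 150.0 and 136 (1.53 ± 0.870, adjusted p = 0.736), without overlap. Its male counterpart Cyp2c11 stayed abundant at 5512, 7781 and 6101 and 5421, 4750.5 and 5634 (-0.28 ± 0.357, adjusted p = 0.926). Dhrs7l1, on the male-biased list, had signals of 3014, 4166 and 4572 in young and 1685, 585 and 874 in old livers (-1.999 ± 0.463, adjusted p = 0.153). The second old liver had the lowest value here and in Cyp3a2 (6629.8, 6256 and 6849 against 6181, 964 and 3506), and its male-biased genes stood at a median of -0.52 against -0.11 and -0.22 in the other two old livers. Hao2, a peroxisomal oxidase, ran against the female-biased list at 969, 2097 and 1196 and 460.2, 158 and 187 (-2.41 ± 0.898, adjusted p = 0.503).

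Targets of p53, the response to DNA damage and senescence, had a median of 0.03 over 29 genes. At an unadjusted p of 0.05, 7 were higher and 2 lower, where 3.99% and 3.65% of all genes were. Without overlap 6 were higher and 2 lower, where 6.93% and 6.56% of all genes were. Phlda3, a p53 target that restrains AKT, had signals of 46.2, 42.5 and 31.3 at 6 months and 102, 172 and 189 at 24 months (1.57 ± 0.306, adjusted p = 0.0787). Plk2, a polo-like kinase, gave 212, 221 and 189 against 376, 337 and 373 (0.76 ± 0.189, adjusted p = 0.202), and Aen, an apoptosis nuclease, gave 104, 68.6 and 91.0 against 151, 147 and 161 (0.72 ± 0.222, adjusted p = 0.368). The old livers were above the young ones in all 3. Cdkn1a, the cell cycle inhibitor p21, gave 163, 38.4 and 166 against 186, 386 and 745 (1.71 ± 0.566, adjusted p = 0.423), with the second young liver the lowest and the first old liver close to the other young ones. The dimmer Cdkn1a probe set gave 1.95 (limma adjusted p = 0.0927 with all probe sets tested). Cdkn2a, the gene of p16, was at or near 0 throughout, at 1.3, 1.3 and 1.0 and 0.8, 0.6 and 0.3. Ccnd1, cyclin D1, overlapped between ages at 107, 189 and 27.4 and 272, 45.3 and 280.5 (0.75 ± 0.753, adjusted p = 0.897), and its difference was 0.13 without the third young liver and 1.503 without the second old one.

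Of 34 genes of defence against oxidation 2 were higher and 4 lower without overlap, where 6.93% and 6.56% of all genes were. The median was -0.11, or -0.0052 after quantile normalization and -0.030 without the third old liver. Nfe2l2, the gene of the master regulator NRF2, had signals of 467, 427 and 468 in young and 829.5, 749 and 633 in old livers (0.67 ± 0.193, adjusted p = 0.32). The ages were apart, and the differences were 1.02 with olive oil and 1.12 with fish oil. Its targets Hmox1 (0.38 ± 0.351, adjusted p = 0.888) and Nqo1 (-0.35 ± 0.379, adjusted p = 0.909) overlapped between ages. Txnrd1, thioredoxin reductase, was higher by 0.44 ± 0.179 and Prdx5, a mitochondrial peroxiredoxin, gave -0.52 ± 0.195. The abundant enzymes Sod2 (0.091), Cat (-0.088) and Gpx1 (0.044) had standard errors of 0.197, 0.160 and 0.122.

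Of 43 amino acid catabolism genes 0 were higher and 3 lower without overlap. Of 26 genes of glycolysis and gluconeogenesis 0 were higher and 5 lower, with a median of -0.11, or 0.0030 without the second young liver. Over all genes 6.93% were higher and 6.56% lower without overlap. Sds, the serine dehydratase, had signals of 561, 680.0 and 1756 at 6 months and 65.2, 1315 and 49.4 at 24 months (-2.22 ± 1.09, adjusted p = 0.675). The second old liver stayed in the young range, and the differences were -4.23 with olive oil and -5.59 with fish oil. Amino acid catabolism as a list had medians of -0.01, -0.31 and -0.55 with sunflower, olive and fish oil, and 38 of 43 members lay above the mean of the other oils, 9 at an unadjusted p of 0.05 (37 and 5 with the third old animal on fish oil left out). At an unadjusted p of 0.05, 4.92% of all genes differed from the mean of the other oils in either direction. Of 43 members, 31 had their highest old value in the second old liver. Pfkfb1, which sets fructose 2,6-bisphosphate, gave 486, 601 and 996 against 146, 255 and 353 (-1.42 ± 0.451, adjusted p = 0.388), without overlap. Cyp7a1, which starts the main route from cholesterol to bile acids, gave 116, 546 and 353 and 258, 424 and 57.9 (-0.54 ± 0.688, adjusted p = 0.928), with overlap.

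Genes of the pericentral zone, next to the central vein, included 5 lower and 0 higher of 18 at an unadjusted p of 0.05. Over all genes 3.65% were lower and 3.99% higher at that p. Of the 18, 4 were lower without overlap, where 6.56% of all genes were. The median was -0.14, or -0.050 after quantile normalization and -0.016 without the third old liver. Lect2, a secreted hepatokine, had signals of 2866, 1616 and 2031 in young and 1021, 963 and 877 in old livers (-1.14 ± 0.249, adjusted p = 0.132). The ages did not overlap, and the difference was -1.17 with olive oil and -1.16 with fish oil. Glul, glutamine synthetase, gave 1662, 1464 and 1414 against 723, 1429.9 and 432 (-0.96 ± 0.362, adjusted p = 0.504), with the second old liver in the young range. Of 17 periportal genes 0 passed an unadjusted p of 0.05.

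In the circadian clock, single genes lay apart between ages while the list median was -0.02 (-0.24 without the third young liver and 0.16 without the second). Of 21 members 3 were higher and 2 lower without overlap, where 6.93% and 6.56% of all genes were. Nr1d1, the repressor REV-ERB-alpha, had signals of 455, 192 and 176 in young and 19.5, 133 and 39.8 in old livers (-1.998 ± 0.590, adjusted p = 0.328), and Nr1d2, its relative, gave -1.12 ± 0.396 (adjusted p = 0.479). REV-ERB represses Bmal1, Nfil3 and Cry1. Bmal1 gave 34.1, 14.9 and 84.9 against 156, 49.1 and 102 (1.02 ± 0.549, adjusted p = 0.704), Nfil3 gave 1.28 ± 0.414 (adjusted p = 0.411) and Cry1 1.30 ± 0.355 (adjusted p = 0.282). Nr1d1, Nr1d2, Nfil3 and Cry1 did not overlap between ages, while Bmal1 and Dbp (270.5, 571 and 116, then 23.5, 204 and 35.5; -1.88 ± 0.923, adjusted p = 0.675) did. The labels give no hour of death. The E-box CACGTG, the site of the clock activators, stood in 4 of 17 clock promoters (23.5%) against 2148 of 33469 (6.42%), among them that of Nr1d1, shown because this gene had the largest clock difference; capitals mark the E-box.
Nr1d1: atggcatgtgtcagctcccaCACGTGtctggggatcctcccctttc
The Nr1d1 window is chr10:84229620-84229665 on the reverse strand, its capitals starting at base -191 from the gene start.

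For the other lists, counts are of members without overlap, where 6.93% of all genes were higher and 6.56% lower. Extracellular matrix genes had a median of -0.21, with 2 higher and 2 lower of 36 without overlap. Lama2, a laminin chain, gave 0.84 ± 0.276 (adjusted p = 0.423) and Col3a1, a fibrillar collagen, -0.94 ± 0.318 (adjusted p = 0.432). Acute phase and complement genes had 2 higher and 2 lower of 29, cytokine genes 3 and 2 of 34, and cell cycle genes 5 and 0 of 37. The cell cycle median was 0.095, or 0.041 without the first old liver, with 25 members above 0 and 12 below. Their summed signal was 1594 to 1646 in young and 1807 to 2005 in old livers, and 12 of 37 stayed under a signal of 16 in all 6. Pancreas markers summed to 1379 to 1693 in young and 861 to 1115 in old livers, and most of this was the elastase gene Cela1 (1320.5, 932 and 1082, then 497, 388 and 336; -1.42 ± 0.336, adjusted p = 0.169), with 6 of 13 markers under a signal of 16 in all 6. The other 12 summed to 357 to 446.5 in young and 364 to 778 in old livers, so the lower sum was that of Cela1. Erythroid markers summed to 5701 to 9644 and 3135 to 8154. The part of such cells in the results was not tested.

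Whether the age difference with sunflower oil differed from that with the other oils was tested directly, and no gene passed. Against the mean of the olive and fish oil differences, limma called 0 of 14217 genes, with 700 (4.92%) at an unadjusted p of 0.05 and a smallest adjusted p of 0.687. It also called 0 against olive oil alone (544 unadjusted, smallest adjusted p 0.897), 0 against fish oil alone (971 and 0.171) and 0 in the F test over all 3 oils (785 and 0.446). The count against the mean of the others was also 0 in the 14 alternatives in which it was recomputed. The 5 genes with the smallest p against the mean of the others were Slc6a17, Dusp2, Cd7, Kcnk13 and Eri1, all dim. Slc6a17, an amino acid transporter, gave -0.70 with sunflower oil, 0.25 with olive oil and 0.31 with fish oil (adjusted p = 0.687). Dusp2, a phosphatase of MAP kinases, gave -0.22, 0.67 and 1.35 (adjusted p = 0.687). Cd7, of T cells, gave -0.34, 0.13 and 0.90 (adjusted p = 0.687). The potassium channel gene Kcnk13 gave -0.33, 1.10 and 0.47 (adjusted p = 0.944), and the exonuclease gene Eri1 gave -0.55, 0.44 and 0.25 (adjusted p = 0.944).

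Genes called with another oil can be read in the sunflower oil livers, which are from other animals. The calls are not independent of these livers, since the fit on all arrays took their spread into its error. Low spread favours both a call and a lack of overlap, so the counts without overlap are a description. Of the 176 genes higher with fish oil, 124 (70.5%) had the same sign with sunflower oil and 47 were higher without overlap, with medians of 0.16 against 1.20. Of the 67 lower with fish oil, 64 (95.5%) had the same sign and 37 were lower without overlap, with medians of -0.35 against -0.84. Of the 14 higher with olive oil 12 had the same sign and 11 did not overlap, and of the 6 lower all 6 and 4. The sign was shared by 60.5% of all genes for each of these oils. With sunflower oil 6.93% of all genes were higher and 6.56% lower without overlap. Choosing genes for a large difference in 1 oil favours a smaller one in another, so the sizes are a description. Leaving out the third fish oil liver at 24 months brought the fish oil calls to 13 higher and 2 lower, of which 10 and 2 kept their sign with sunflower oil.

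**Figure D5:**
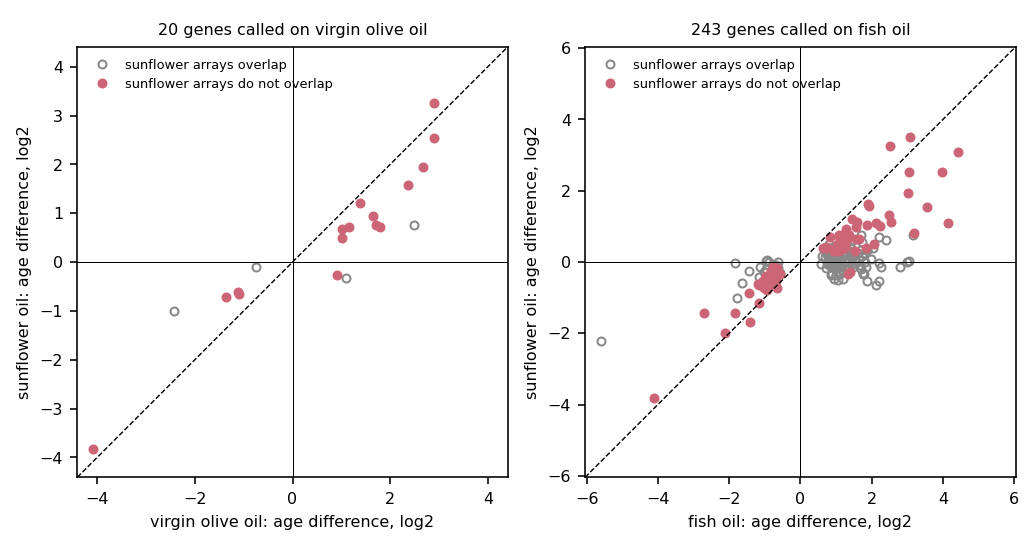
Age difference with sunflower oil (vertical axis, log2) against that with virgin olive oil (left, 20 genes called there) or fish oil (right, 243 genes called there); filled points are genes whose sunflower oil livers do not overlap between ages, and the dashed line marks equal differences. Of the genes higher with fish oil, 52 lie at or below 0 with sunflower oil, while 64 of 67 lower ones lie below 0.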

How the data were processed

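The deposited values were the authors' array intensities, 1 per probe set and animal, from Affymetrix rat genome arrays. Per the submitters' processing notes RMA and Partek were used, but the intensities were linear and ran from 0.0 to 14085, whereas RMA gives log2 values, so how they were made remains unknown; each array had been scaled to a common trimmed mean. Of all values 47.3% lay under 16, the pseudocount added before log2. Of 31042 probe sets 20826 carried 1 gene symbol, and the brightest of a gene stood for it, giving 14217 genes. The number of animals, 3 a group, limits the precision.

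All 18 arrays in 6 groups were fitted with limma 3.58.1 in R 4.3.3 (12 residual and 4.32 prior degrees of freedom), and Benjamini-Hochberg adjustment ran over all genes, with a threshold of 0.05; all tests are two-sided and all adjusted p-values are limma's unless another fit is named. The code was tested on simulated data. Tables, promoter searches and figures were made with Python 3.11.15, numpy 2.4.6, pandas 2.3.3 and matplotlib 3.10.9. The naming rule took up to 15 called genes in each direction without overlap, up to 4 called members of a list, 36 core genes, and the 5 genes with the smallest p against the other oils; the rest of the named genes were picked with their values in view. The members and lists were chosen with earlier results of these data known. Promoter sequences are RefSeq's, GRCr8.

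Alternatives were pseudocounts of 4 and 64, leaving out genes of mean signal under 32, quantile normalization, the sunflower oil arrays alone, the replicate number as a term, the mean of a gene's probe sets, an intensity trend with robust fitting, leaving out the 3 arrays numbered 2 at 6 months and each sunflower oil array in turn. Testing all probe sets and leaving out the third fish oil liver at 24 months were chosen after seeing the data. No control probe sets were among the values used, so RNA quality was not checked here.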

Additional observations from a re-analysis of the deposited data

Results flagged for a closer look

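Slc6a17 and Eri1 stood out because their 3 old livers all lay below the 3 young ones with sunflower oil and all above them with olive oil. The sunflower oil age difference minus that of olive oil was -0.96 for Slc6a17 (unadjusted p = 0.000694) and -0.99 for Eri1 (unadjusted p = 0.000765). Neither passed limma's adjustment over all genes (adjusted p = 0.9999 for each). Both genes are dim: Slc6a17 signals were 19.3, 12.8 and 18.4 at 6 months and 5.6, 3.1 and 3.6 at 24 months with sunflower oil, and those of Eri1 were 39.1, 32.5 and 30.9 and 22.1, 13.5 and 19.9. The other 4 probe sets of Slc6a17 gave -0.26 to -0.02 with sunflower oil. Young array medians were 16.1 to 16.5 with olive oil and 18.4 with sunflower oil, and their part in these differences was not tested.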

How the results depend on the processing

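The count of genes called for ageing with sunflower oil was 0 higher and 0 lower in the reported fit, and 0 with pseudocounts of 4 and 64, quantile normalization, the mean of probe sets, an intensity trend and without the arrays numbered 2 at 6 months. It was 10 higher and 5 lower with dim genes left out, 1 higher (Prlr) with the sunflower oil arrays alone, 8 higher and 1 lower with all probe sets tested, 0 to 7 higher and 0 to 6 lower with each array left out in turn. Between young and old sunflower oil arrays, deviations from group means correlated at 0.0388, 0.0677 and 0.180 for numbers 1, 2 and 3. Of the 3 samples of each age, 2 correlated best with their own number. These values do not settle whether a number links samples, and they do not cover same-numbered arrays of different oils. The reported fit has no term for the number. With a replicate block 2 genes were higher (Vxn and Ablim1) and 3 lower (Lepr, Cldn3 and Inmt), and with the block on the sunflower oil arrays alone 0 passed. The count against the mean of the other oils was 0 in the 14 alternatives in which it was recomputed, which do not include the fits on sunflower oil arrays alone or on all probe sets.

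Each of the 142 named genes was recomputed under these settings. The sign turned in some setting for 12 of them, none of which was called, and the cause was not tested. With quantile normalization Cat gave 0.0070 and Mx1 -0.0047. Without the arrays numbered 2 at 6 months Srebf1 gave 0.024, Alox5 0.17, Ephx2 -0.42 and Fdps 0.026. With 1 array left out, the lowest and highest values were -1.13 and 0.20 for Cyp7a1, -0.65 and 0.10 for Srebf1, -0.0046 and 0.080 for Gpx1, -0.094 and 0.077 for Igf1, -0.16 and 0.17 for Alox5, -0.15 and 0.049 for Ptgs2, -0.42 and 0.77 for Ephx2, -0.098 and 0.58 for Irf7, -0.17 and 0.27 for Mx1, -0.20 and 0.77 for Mx2, and -1.20 and 0.026 for Fdps. Of 624 recomputed list medians, 542 moved by less than the spread between old livers and 82 by more. Signal over background limits the dim genes: 2959 genes stayed under a signal of 16 on all 6 sunflower oil arrays.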

Other observations

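Genes of autophagy and the lysosome had 1 member higher and 6 lower without overlap of 31 measured. Over all genes these shares were 6.93% and 6.56%. The list median was -0.05, with 14 members above 0 and 17 below. It was 0.0046 after quantile normalization and 0.017 without the third old liver, so the list has no settled direction. Cd63, a tetraspanin of lysosomes and late endosomes, had signals of 2018, 757 and 738 in young and 179.5, 248 and 179 in old livers (-2.29 ± 0.472, adjusted p = 0.112). All 3 old livers were far below the young ones, and the difference was -2.04 with olive oil and -1.13 with fish oil. Ctsa, a lysosomal protease, gave 1923, 1323 and 1813 against 1318, 986 and 1181 (-0.52 ± 0.203, adjusted p = 0.527), and Naglu, which degrades heparan sulfate, gave -0.45 ± 0.173 (adjusted p = 0.51). Neither overlapped between ages.

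Among plasma proteins made by the liver, C6, a complement component of the membrane attack complex, had signals of 109, 509.6 and 101 in young and 627, 515 and 546 in old livers (1.55 ± 0.528, adjusted p = 0.448). The second young liver came close to the old ones. Lbp, which binds bacterial lipopolysaccharide, gave 3040.5, 1486 and 1185 against 1096, 689 and 592 (-1.18 ± 0.502, adjusted p = 0.589), without overlap. The protease gene C1r of the complement system gave 1922, 2074 and 1563 against 1695, 826 and 494 (-1.04 ± 0.324, adjusted p = 0.377), with the first old liver in the young range. Of 29 acute phase and complement genes, 22 had their highest old value in that liver. These genes were chosen after their values were seen.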
